A study of Mus musculus with 16 samples.

Results

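The 8 genes described here encode fibroblast growth factors (FGFs) of the early mouse limb bud: Fgf8, Fgf4, Fgf17 and Fgf9, which are known from the apical ectodermal ridge, and Fgf10, Fgf2, Fgf18 and Fgf7, which are known from mesenchyme. They were picked by gene symbol from the table of read counts, where they are 8 of 53800 genes. Of the 8, 7 passed the filter on low counts and were tested; Fgf7 did not pass it. RNA came from the outer 150 µm of forelimb buds of B6 mouse embryos, which carried no other allele or treatment according to the labels, at 4 embryonic stages from E9.5 to E12.5, each 1 day apart. The strips were treated with trypsin on ice and the ectoderm was pulled off the mesoderm with forceps, which gave 8 groups (2 layers at 4 stages) of 2 libraries each, made from polyadenylated RNA with a stranded kit. For each stage and replicate number, both layers came from one batch of embryos, and RNA was purified with the RNeasy Plus kit for replicate 1 and the RNeasy kit for replicate 2. The p-values rest on the spread between the 2 libraries of a group, estimated over all 8 groups. Those 2 libraries come from different embryo batches, which also differ in kit, and several embryos may be pooled in a library. The main layer tests did not use the pairing of the layers by embryo batch, which was used only as an alternative.

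Most FGFs are secreted proteins that bind receptor tyrosine kinases together with heparan sulphate. In the limb bud, FGF10 from the mesenchyme is needed for the overlying ectoderm to form the apical ridge, and the ridge answers with FGF8 and later FGF4, FGF9 and FGF17, which keep the mesenchyme growing and sustain sonic hedgehog expression at the posterior edge. FGF10 and FGF7 act mainly on the epithelial splice form of FGFR2, and ridge ligands mainly on the mesenchymal forms of FGFR1 and FGFR2.

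The libraries held 10005867 to 30438214 counts. Levels between libraries are given as CPM (counts per 1e+06 counts) on library sizes scaled by the trimmed mean of M-values, and levels between genes as the deposited FPKM, which correct for transcript length. The labelled layers were checked against lists of marker genes. The 12 surface epithelium markers summed to 2470 to 7087 CPM in ectoderm and to 12.3 to 92.6 CPM in mesoderm, and the 12 limb mesenchyme markers to 2472 to 6167 CPM in mesoderm and to 488 to 1706 CPM in ectoderm. No epithelium marker was at 0 in any mesoderm library, and at most 1 mesenchyme marker was at 0 in an ectoderm library. Relative to the other layer of the same embryo batch, the median epithelium marker in mesoderm stood at 0.11 to 2.28% and the median mesenchyme marker in ectoderm at 3.46 to 39.0%, with the highest share in ectoderm at E11.5 replicate 1. Of the mesenchyme markers, Pdgfra was called higher in ectoderm at E10.5 (441 and 491 against 217 and 213 CPM), within ectoderm sums of 863 and 902 CPM. In bulk tissue of this kind, fewer cells of a type and less RNA per cell cannot be told apart.

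The promoter stretches of 4 members are shown because the exon counts or the layer contrast bear on them: Fgf4 and Fgf9 of the ridge, with Fgf10 and Fgf2 of the mesenchyme for comparison. Each is the 250 bases before the RefSeq start on GRCm38.p6, read 5′ to 3′ on the plus strand. The stretches lie at chr7:144861136-144861385 (Fgf4), chr14:58072436-58072685 (Fgf9), chr13:118714449-118714698 (Fgf10) and chr3:37348403-37348652 (Fgf2). The promoter table held 6 of the 8 members, all but Fgf8 and Fgf17. Capitals mark matches to the motifs searched, namely the TATA box TATAAA, the GC box GGGCGG, the CCAAT box CCAAT and the TCF/LEF-type motif CTTTGA, each on both strands.
Fgf4 promoter: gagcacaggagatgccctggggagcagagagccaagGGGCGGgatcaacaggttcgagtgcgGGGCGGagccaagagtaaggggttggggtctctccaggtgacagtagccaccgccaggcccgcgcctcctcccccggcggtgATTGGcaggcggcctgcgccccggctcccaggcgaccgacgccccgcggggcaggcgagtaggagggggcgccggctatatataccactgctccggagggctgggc
Fgf9 promoter: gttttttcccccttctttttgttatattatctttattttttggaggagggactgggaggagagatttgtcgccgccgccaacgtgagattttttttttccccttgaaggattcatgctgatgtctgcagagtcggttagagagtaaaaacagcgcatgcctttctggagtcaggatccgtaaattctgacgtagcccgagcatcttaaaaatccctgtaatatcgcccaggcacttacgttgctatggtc
Fgf10 promoter: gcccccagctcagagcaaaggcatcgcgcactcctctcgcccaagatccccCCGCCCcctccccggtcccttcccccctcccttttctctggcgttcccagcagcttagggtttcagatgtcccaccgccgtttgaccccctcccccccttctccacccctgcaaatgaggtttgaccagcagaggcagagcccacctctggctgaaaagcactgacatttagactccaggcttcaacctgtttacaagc
Fgf2 promoter: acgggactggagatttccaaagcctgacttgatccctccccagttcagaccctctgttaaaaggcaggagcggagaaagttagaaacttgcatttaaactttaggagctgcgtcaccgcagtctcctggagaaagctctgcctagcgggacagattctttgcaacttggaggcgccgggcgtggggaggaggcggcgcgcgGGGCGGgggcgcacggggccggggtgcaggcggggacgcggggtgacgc
The Fgf4 stretch has 71.2% G and C, 2 GC boxes at 214 and 188 bases before the start and a CCAAT box on the minus strand at 106 bases. The Fgf9 stretch has 44.8% G and C and none of the motifs, Fgf10 has 1 GC box on the minus strand at 199 bases and Fgf2 has 1 at 49 bases. These are letters in a window: 32.7% of 32851 mouse promoter windows of the same length hold the GC box, 33.8% CCAAT, 13.8% CTTTGA and 12.4% TATAAA, and no motif overlapped another.

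The exon counts show which annotated first exon held the reads. For Fgf4, 330 of the 331 ectoderm counts that fell on an annotated first exon (99.7%) were on the exon at chr7:144861386-144861832, which begins where the Fgf4 stretch above ends. For Fgf9, 1264 of 1302 ectoderm counts on first exons (97.1%) were on chr14:58072686-58073332, which likewise follows the Fgf9 stretch, and so were 71 of 72 mesoderm counts (98.6%).

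Fgf8 is annotated with 6 transcripts on the minus strand at chr19:45736798-45742915 (GENCODE M21, mm10), and 2 alternative pieces near its 5′ end are shown because each lies within the coding sequence of 2 transcripts and so separates FGF8 protein forms. The first is an extension of 33 bases at chr19:45741647-45741679, present in 3 of the 6 transcripts, and the second is an exon of 87 bases at chr19:45741911-45741997, present in 2. Both are written in the sense of the transcript, with no base set apart.
33-base extension: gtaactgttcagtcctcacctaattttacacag
87-base exon: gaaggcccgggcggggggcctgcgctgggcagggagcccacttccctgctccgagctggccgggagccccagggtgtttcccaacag

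Fgf8, the principal ridge signal, had the highest length-corrected level of the 8 genes in every ectoderm library. Its ectoderm level was 358 and 194 CPM (E9.5), 1597 and 903 CPM (E10.5), 201 and 413 CPM (E11.5) and 63.6 and 73.9 CPM (E12.5), replicate 1 first. E10.5 was the highest and E12.5 the lowest stage without overlap, whereas E9.5 and E11.5 overlapped. In mesoderm it was 0.907 and 0.123, 9.07 and 3.34, 3.55 and 2.06, and 0.174 and 0.061 CPM at the successive stages. Every mesoderm library lay below every ectoderm library. Fgf8 was higher in ectoderm at all 4 stages, with log2 fold changes of 8.95 ± 0.82 (E9.5, SE, 2 libraries a group), 7.62 ± 0.73 (E10.5), 6.75 ± 0.71 (E11.5) and 9.01 ± 0.92 (E12.5). The adjusted p-values of edgeR's quasi-likelihood test with Benjamini-Hochberg adjustment, used throughout, were 1.62e-05, 1.77e-05, 4.99e-05 and 2.95e-05.

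Fgf4, a ridge ligand that depends on hedgehog signalling from the mesenchyme, lies at chr7:144847367-144865243 on the plus strand. In ectoderm it was at 5.06 and 1.57 CPM (E9.5), 243 and 96.05 CPM (E10.5), 2.26 and 31.0 CPM (E11.5) and 2.06 and 0.989 CPM (E12.5). The E10.5 libraries stood above all others. E9.5 overlapped both E11.5 and E12.5, whereas both E11.5 libraries lay above both E12.5 libraries. In mesoderm Fgf4 had no count at E9.5, 0.828 and 0.409 CPM (E10.5), 0 and 0.266 CPM (E11.5) and 0.0436 and 0 CPM (E12.5). Fgf4 was higher in ectoderm at E10.5 by 7.997 ± 1.32 on the log2 scale (adjusted p 0.00126) and at E11.5 by 7.15 ± 1.54 (0.00757, edgeR). The E11.5 call is lost without mesoderm replicate 1 (edgeR adjusted p 0.0751) and with limma on log2(FPKM + 1) (0.0565, or 0.110 without the filter). At E9.5 the 74 ectoderm counts against 0 in mesoderm make it at least 35.2-fold higher, taking 3 counts over the group as the floor (edgeR adjusted p 0.0329). That call is lost without either mesoderm library (adjusted p 0.147 and 0.111) or without ectoderm replicate 1 (0.141), and with the replicate number as a block (0.052). At E12.5, 60 counts stood against 1, a ratio of 63.8 with a 95% counting interval of 11.01 to 2560; the edgeR adjusted p of 0.0824 did not pass and became 2.35e-05 with the embryo batch as a block. Such intervals and floors cover counting error only.

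Fgf17, a ridge ligand of the FGF8 subfamily, lies at chr14:70636203-70642268 on the minus strand. In ectoderm it was at 4.22 and 2.84 CPM (E9.5), 31.9 and 24.5 CPM (E10.5), 6.56 and 15.95 CPM (E11.5) and 4.76 and 2.77 CPM (E12.5). The order was E10.5, then E11.5, then E9.5 and E12.5, which overlapped. In mesoderm it was 0 at E9.5 and at most 0.656 CPM later. Fgf17 was higher in ectoderm at every stage. The log2 fold change was 5.90 ± 0.67 at E10.5 (edgeR adjusted p 9.92e-05) and 5.52 ± 0.70 at E11.5 (0.000281). At E9.5, 87 counts against 0 make it at least 41.4-fold higher (edgeR adjusted p 0.000334), and at E12.5, 146 counts against 1 give a ratio of 155 with a 95% counting interval of 27.4 to 6170 (0.000304).

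Fgf9, which in the limb is made in the ridge and in other organs also signals from epithelium to mesenchyme, lies at chr14:58070547-58112720 on the plus strand. In ectoderm it was at 8.86 and 7.18 CPM (E9.5), 39.0 and 58.7 CPM (E10.5), 29.7 and 44.9 CPM (E11.5) and 29.3 and 39.4 CPM (E12.5). The 3 later stages overlapped each other and all lay above E9.5, so its lowest stage was E9.5 and not E12.5. In mesoderm it was 0.0955 and 1.41, 0.276 and 0.887, 0.443 and 0.932, and 5.84 and 1.04 CPM. Replicate 1 at E12.5 was the highest mesoderm library, with 134 of that group's 151 counts. Fgf9 was higher in ectoderm by 3.47 ± 0.92 (E9.5), 6.52 ± 1.003 (E10.5), 5.80 ± 0.97 (E11.5) and 3.29 ± 0.82 (E12.5) on the log2 scale (edgeR adjusted p 0.0192, 0.00055, 0.00126 and 0.0106). The E9.5 call is lost without mesoderm replicate 1 (adjusted p 0.113) or either ectoderm library (0.0686 and 0.0512), and the E12.5 call without mesoderm replicate 2 (0.0599).

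**Figure D1:**
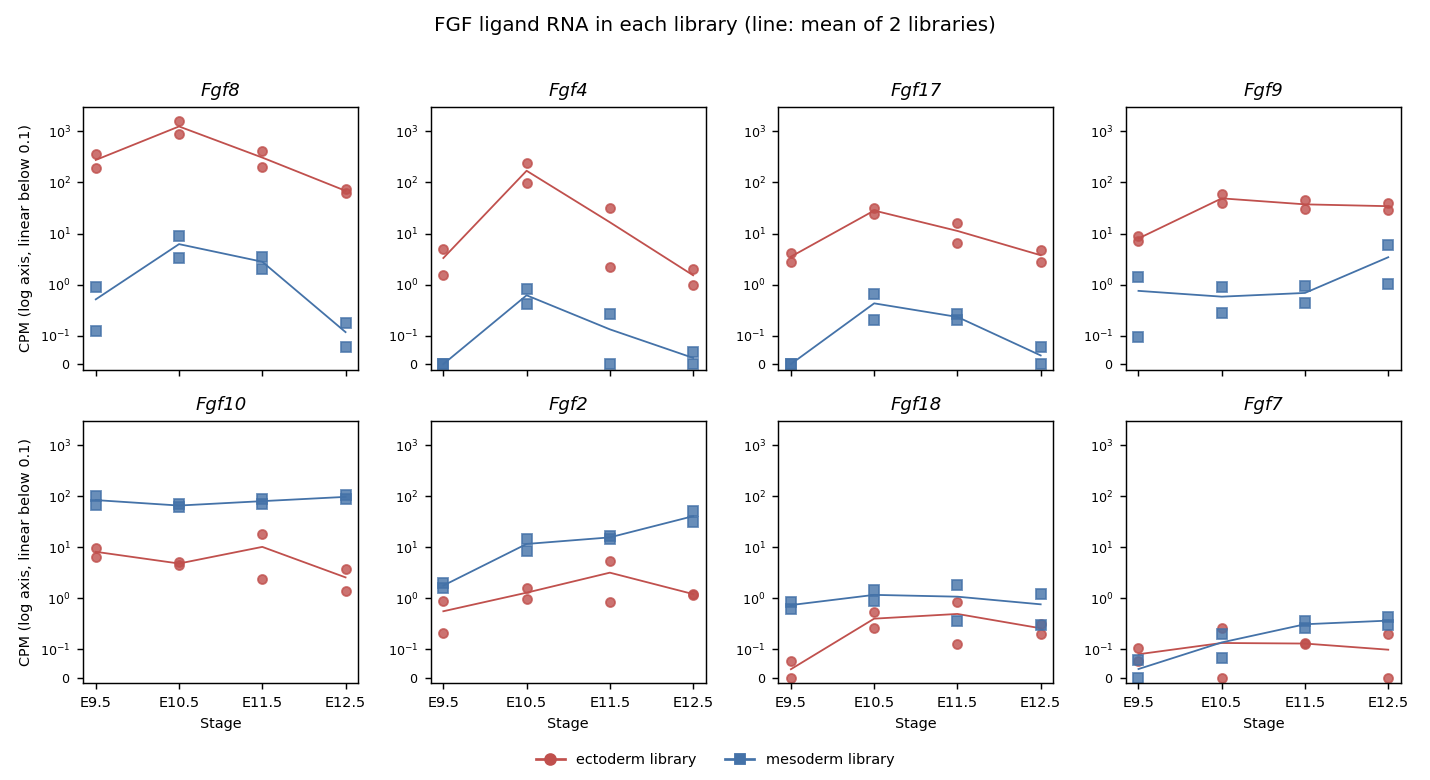
Level of each of the 8 FGF genes in every library, in CPM on an axis that is logarithmic above 0.1 and linear below it, against embryonic stage; points are libraries, lines join the means of 2, and colours mark ectoderm and mesoderm. Fgf8, Fgf4 and Fgf17 have their highest ectoderm libraries at E10.5, Fgf9 stays at 29.3 CPM or more from E10.5 on, and Fgf10 and Fgf2 lie higher in mesoderm.

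Fgf10, the mesenchymal signal that limb outgrowth requires, is counted over chr13:118714699-118792115 on the plus strand. In mesoderm it was at 65.7 and 102 CPM (E9.5), 61.0 and 70.0 CPM (E10.5), 70.2 and 89.5 CPM (E11.5) and 107 and 86.4 CPM (E12.5). By mean the order was E12.5, E9.5, E11.5 and E10.5; neighbours overlapped except E11.5 and E10.5, whose nearest libraries were at 70.2 and 70.0 CPM. In ectoderm it was at 9.71 and 6.58, 4.52 and 5.07, 17.9 and 2.38, and 3.75 and 1.38 CPM. Fgf10 was lower in ectoderm at all stages, with log2 differences of −3.37 ± 0.71 (E9.5), −3.77 ± 0.73 (E10.5), −2.95 ± 0.68 (E11.5) and −5.20 ± 0.77 at E12.5 (edgeR adjusted p 0.00508, 0.0025, 0.00959 and 0.000409). The E9.5 call is lost without ectoderm replicate 2 (adjusted p 0.0615). At E11.5 the ectoderm libraries stood apart, and the value ranged from −5.12 without replicate 1, whose median mesenchyme marker stood at 39.0% of mesoderm, to −2.15 without replicate 2, with the call kept. An antisense gene, Gm16263, overlaps Fgf10, and no source used here says whether the counts used strand.

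Fgf2, a basic FGF without a classical signal peptide, lies at chr3:37348346-37410108 on the plus strand. In mesoderm it was at 1.96 and 1.60 CPM (E9.5), 8.38 and 14.8 CPM (E10.5), 14.8 and 16.4 CPM (E11.5) and 50.4 and 30.7 CPM (E12.5). E9.5 was the lowest and E12.5 the highest stage without overlap; the E10.5 and E11.5 groups met at 14.8 CPM. In ectoderm it was at 0.211 and 0.905, 0.976 and 1.60, 5.50 and 0.861, and 1.24 and 1.19 CPM. Fgf2 was lower in ectoderm at E10.5 (log2 −3.14 ± 0.72), E11.5 (−2.26 ± 0.66) and E12.5 (−5.06 ± 0.75), with edgeR adjusted p-values of 0.00705, 0.0311 and 0.00042. At E9.5 the value of −1.53 ± 0.80 did not pass (0.22). The E10.5 call is lost without ectoderm replicate 1 (0.0653), and the E11.5 call without either mesoderm library (0.0802 and 0.0986) or ectoderm replicate 2 (0.119). Fgf2os, Nudt6 and Gm42923 overlap Fgf2 on the minus strand and Gm43439 on the plus strand, so its counts are uncertain in the same way.

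Fgf18, a mesenchymal and skeletal ligand at chr11:33117430-33147400 on the minus strand, was low in both layers. In mesoderm it was at 0.860 and 0.615, 1.45 and 0.887, 0.355 and 1.80, and 1.22 and 0.305 CPM, and in ectoderm at 0 and 0.0603, 0.532 and 0.267, 0.128 and 0.861, and 0.320 and 0.198 CPM at the successive stages. The layers overlapped at E11.5 and E12.5. The log2 differences were −1.57 ± 1.02 (E10.5), −1.15 ± 0.99 (E11.5) and −1.53 ± 1.03 at E12.5 (edgeR adjusted p 0.311, 0.526 and 0.35), and at E10.5 a block for embryo batch gave −1.55 (0.0483). In the same embryo batch mesoderm exceeded ectoderm in all 8 pairs of libraries. At E9.5, 1 ectoderm count stood against 28 in mesoderm, so mesoderm was higher by a ratio of 19.6 with a 95% counting interval of 3.24 to 802. Its edgeR adjusted p was 0.066, against 0.00731 with a block for embryo batch and 0.0496 with DESeq2. Fgf7, known as keratinocyte growth factor and a ligand of the same receptor form as FGF10, lies at chr2:126034658-126091185 on the plus strand. It had 14 counts over the 8 ectoderm libraries and 32 over the 8 mesoderm libraries, with a highest level of 0.427 CPM in mesoderm at E12.5 replicate 2. With so few counts it was not tested, and a layer or stage difference was not detectable at this depth. Fgf7 also overlaps Fam227b on the other strand.

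Across the 7 tested members, 4 were called higher in ectoderm and 1 lower at E9.5, where 13.1% of all 15501 genes were called higher and 8.29% lower. The counts were 4 and 2 at E10.5 (16.2% and 10.2% of all genes), 4 and 2 at E11.5 (12.9% and 7.69%), and 3 and 2 at E12.5 (13.3% and 13.2%). Those called higher in ectoderm were all among Fgf8, Fgf4, Fgf17 and Fgf9, and those called lower were Fgf10 and Fgf2. A gene that is high in 1 layer passes the count filter through that layer, so these counts describe the members and support nothing beyond the tests of each gene.

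**Figure D2:**
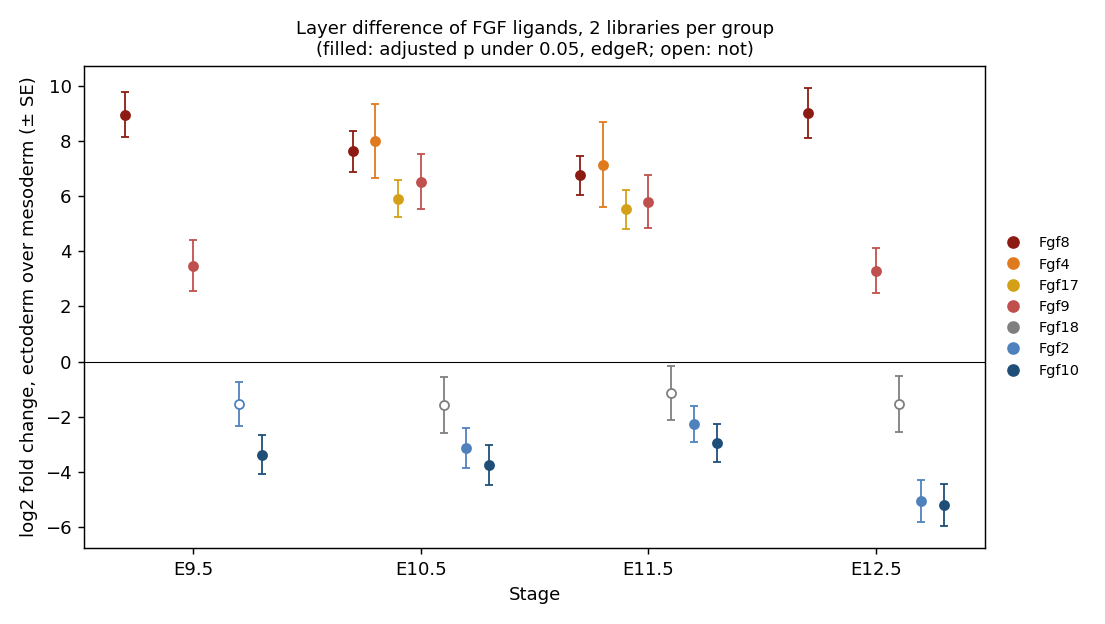
Log2 fold change of ectoderm over mesoderm (y axis) by embryonic stage (x axis) for the members with more than 3 counts in both groups, with bars of 1 SE from the edgeR fit; filled points had an adjusted p under 0.05. Fgf8 lies between 6.75 and 9.01 and Fgf10 between −5.20 and −2.95.

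Within ectoderm, Fgf4 and Fgf17 rose between E9.5 and E10.5, by 5.74 ± 1.18 and 3.01 ± 0.57 on the log2 scale (edgeR adjusted p 0.0237 and 0.016). These were 2 of the 7 tested members, against 2.95% of all genes called higher in that step. Each call is lost when any of the 4 libraries is left out (adjusted p 0.0503 to 0.223 for Fgf4 and 0.057 to 0.183 for Fgf17). Fgf9 and Fgf8 had values of 2.61 ± 0.79 and 2.18 ± 0.57 that did not pass (adjusted p 0.105 and 0.0566). With the replicate number as a block both passed (0.0108 and 0.00379), and DESeq2 called both (0.0262 and 0.00721). In that step 3 of 12 limb mesenchyme and 2 of 12 epithelium markers rose in ectoderm, and 1 each of the tested endothelium, muscle precursor and neural crest markers fell. Their part in the member values was not tested.

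The later single-day steps of ectoderm gave no called member. From E10.5 to E11.5, 0.00645% of all genes were called. An unadjusted edgeR p under 0.05 was reached by 3 members and by 7.8% of all genes, and DESeq2 called 0 members. The share of all genes that DESeq2 called is not given for any comparison, so its counts of members have no background here. The values were −2.02 ± 0.56 for Fgf8, −3.36 ± 1.02 for Fgf4 and −1.33 ± 0.53 for Fgf17 (edgeR adjusted p 0.263, 0.334 and 0.54), and the block gave Fgf8 0.0303. Fgf4 replicates moved to 2.26 and 31.0 CPM, so the 2 batches moved by different amounts. From E11.5 to E12.5, 0.426% of all genes were called. An unadjusted edgeR p under 0.05 was reached by 4 members and by 8.82% of all genes, and DESeq2 called 1 member. Fgf8 had a value of −2.16 ± 0.57 (edgeR adjusted p 0.153, 0.0134 with the block), Fgf4 of −3.40 ± 1.10 (0.286) and Fgf17 of −1.57 ± 0.54 (0.328), whereas Fgf9 had −0.12.

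Set against their E10.5 peak, a contrast chosen after seeing the data, 3 members fell in ectoderm by E12.5, when 2.9% of all genes were called lower. Fgf8 fell by 4.18 ± 0.62, Fgf4 by 6.76 ± 1.23 and Fgf17 by 2.90 ± 0.56 on the log2 scale (edgeR adjusted p 0.00368, 0.0118 and 0.016). Fgf9 had a value of −0.51 ± 0.74 (0.927), and whether it differs from the others was not tested. Without ectoderm E12.5 replicate 1 the Fgf8 call is lost (0.061), and the Fgf4 and Fgf17 calls are each lost without 1 of 3 libraries (0.0698 to 0.114 and 0.0902 to 0.113). Over the whole course from E9.5 to E12.5, 7% of genes were called lower and Fgf8 was the 1 called member, with a log2 value of −2.01 ± 0.56 (edgeR adjusted p 0.0323), a call that no removal of one of its 4 libraries preserved (0.0509 to 0.206). Fgf9 had 2.10 ± 0.78 (0.0968, or 0.0144 with the block), Fgf4 −1.02 (0.652) and Fgf17 0.11 (0.939). Over that course 7 of 8 erythroid and all 5 tested muscle precursor markers fell in ectoderm. Of the 12 limb mesenchyme markers 2 rose and 2 fell, of the 12 epithelium markers 3 rose and 2 fell, of 6 tested neural crest markers 1 rose and 3 fell, and 1 endothelium and 1 cartilage marker fell. The part of these markers in the member values was not tested. Among the muscle precursor markers, Met averaged 168 CPM in E9.5 ectoderm against 24.5 CPM in mesoderm, and Pax7 5.14 against 0.376 CPM. In that layer contrast edgeR called Met and Pax7 in favour of ectoderm, and Pax3, Des and Lbx1 in favour of mesoderm. Whether the fall of this list in ectoderm reflects fewer muscle precursor cells was not tested. The stage comparisons share libraries and are not independent of one another.

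Within mesoderm, Fgf2 rose over the course. Between E9.5 and E10.5, when 5.3% of genes were called higher, 3 members rose: Fgf2 by 2.69 ± 0.69 (edgeR adjusted p 0.0316), Fgf8 by 3.52 ± 0.75 (0.0133) and Fgf17, with 22 counts against 0, at least 6.25-fold (0.0262). The Fgf2 call is lost without any one of its 4 libraries (0.0578 to 0.165), the Fgf8 call without mesoderm E9.5 replicate 2 (0.0889) or E10.5 replicate 1 (0.128), and the Fgf17 call without either E9.5 library (0.145 and 0.0972) or E10.5 replicate 1 (0.196). In the same step 6 of the 12 epithelium markers rose in mesoderm and 1 fell, with a median of 1.88 against 0.00 for all genes. Also in that step all 5 tested muscle precursor markers fell, while 4 of 7 tested macrophage, 2 of 6 cartilage, 2 of 12 limb mesenchyme and 1 of 6 neural crest markers rose. The part of these markers in the Fgf2, Fgf8 and Fgf17 values was not tested.

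From E9.5 to E12.5, when 17% of genes were called higher in mesoderm, Fgf2 was the 1 called member, higher by 4.50 ± 0.73 (edgeR adjusted p 0.000987). It stayed called without any single library. Fgf10 had a value of 0.21 ± 0.63 (0.852) and Fgf9 of 2.29 ± 0.92 (0.0846, or 0.0259 with the replicate number as a block). The Fgf9 value ranged from 0.54 to 5.10 when single libraries were left out, and within replicate numbers it was 5.93 and −0.45. Over the same course all 7 tested macrophage markers rose in mesoderm, their summed level going from 1.66 and 2.10 CPM to 59.7 and 124 CPM, and 4 of 6 tested cartilage markers rose, from 125 and 137 CPM to 891 and 1282 CPM. Of 6 tested neural crest and glia markers 3 rose, as did 3 of 12 limb mesenchyme markers, whereas all 5 tested muscle precursor, 4 of 12 epithelium and 3 of 8 erythroid markers fell and 1 epithelium marker rose. The part of these markers in the Fgf2 value was not tested.

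No member was called in mesoderm from E10.5 to E11.5, when 0.394% of genes were. An unadjusted edgeR p under 0.05 was reached by 0 members and by 9.6% of all genes, and DESeq2 called 0 members. From E11.5 to E12.5, 0.31% of genes were called. An unadjusted edgeR p under 0.05 was reached by 4 members and by 9.96% of all genes, and DESeq2 called 1 member. The largest value there was −4.42 ± 0.997 for Fgf8 (edgeR adjusted p 0.0932, or 0.0465 with the replicate number as a block). Between E10.5 and E12.5, the other contrast chosen after seeing the data, Fgf8 fell in mesoderm by 5.58 ± 0.94 (edgeR adjusted p 0.00497) where 3.14% of genes were called lower. Without mesoderm E10.5 replicate 1 its adjusted p is 0.0513, and without E12.5 replicate 1 it is 0.0524. In that interval 5 of the 12 epithelium markers fell in mesoderm and 0 rose. Fgf2 had 1.81 ± 0.64 (0.102, or 0.0206 with the block) and Fgf9 2.72 ± 0.95 (0.0996).

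A direct test asked whether the E12.5 against E9.5 difference was unequal between the layers. It called 0 of the 7 members, against 8.27% of all genes. An unadjusted edgeR p under 0.05 was reached by 1 member and by 20.4% of all genes, and DESeq2 called 1 member. That member was Fgf2, whose change in ectoderm minus that in mesoderm was −3.52 ± 1.09 on the log2 scale (edgeR adjusted p 0.0732). It passed with the embryo batch (0.0388) or the replicate number (0.0394) as a block and with DESeq2 (0.0106). Fgf10 had −1.83 ± 0.95 (0.326).

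The share of each ligand in the summed FPKM of the 8 genes describes the mixture of ligand RNA in a layer. In ectoderm Fgf8 made up 96.8% ± 0.402 (E9.5, SD, n = 2), 92.6% ± 0.0191 (E10.5), 89.5% ± 2.05 (E11.5) and 77.2% ± 2.23 (E12.5). Fgf9 made up 1.27% ± 0.347, 1.89% ± 1.01, 5.69% ± 2.18 and 18.1% ± 0.16. The Fgf8 share at E12.5 lay below that of every earlier ectoderm library and the Fgf9 share above, while the Fgf9 level itself stayed near 18.3, 14.2 and 12.9 FPKM from E10.5 on and the Fgf8 level went from 975 ± 290 to 55.1 ± 8.32 FPKM. Fgf4 reached 4.04% ± 1.25 (E10.5) and Fgf17 2.56% ± 1.23 (E12.5). Computed instead from counts per kilobase of exon, the E12.5 shares were 82.1% for Fgf8 and 11.9% for Fgf9.

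In mesoderm Fgf10 led at every stage with 90.8% ± 4.79, 61.7% ± 10.8, 72.0% ± 4.16 and 70.8% ± 8.45. Fgf2 had 1.82% ± 1.17 (E9.5), 8.57% ± 2.15 (E10.5), 10.8% ± 0.961 (E11.5) and 21.7% ± 4.02 (E12.5). Fgf8 had 22.8% ± 11.8 of the mesoderm total at E10.5 and 11.1% ± 6.69 (E11.5), at 4.97 and 2.51 FPKM. In those 2 groups the median epithelium marker in mesoderm was at 0.756 to 2.28% of its ectoderm level, against 0.11 to 0.794% at E9.5 and E12.5, and its part in the share was not tested.

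**Figure D3:**
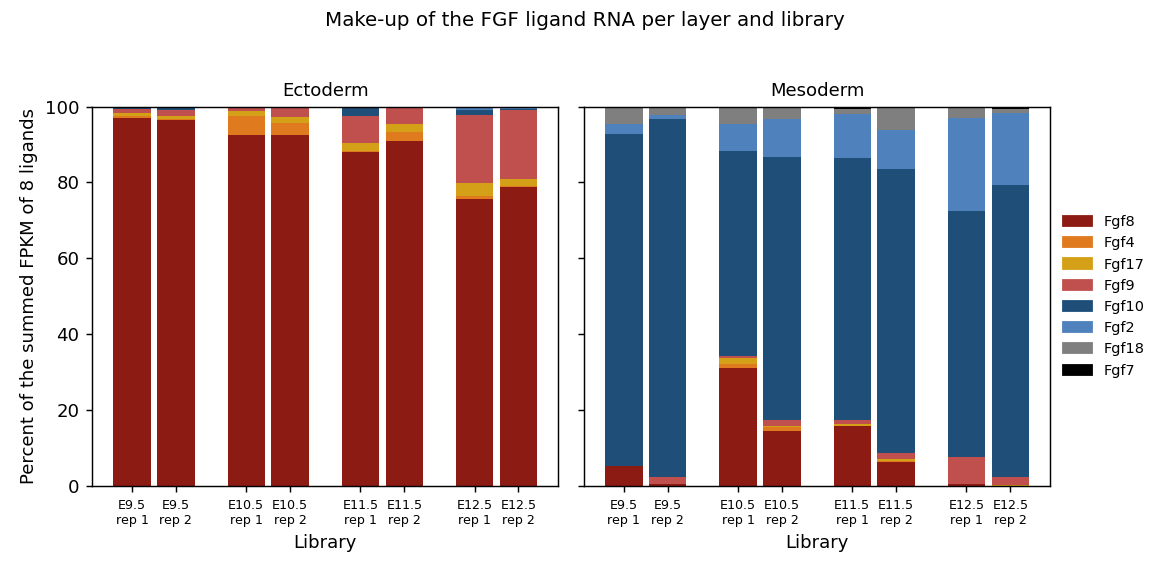
Share of each of the 8 FGF genes in their summed FPKM (y axis, percent) in each of the 16 libraries (x axis), as stacked bars. Fgf8 fills most of each ectoderm bar with a growing Fgf9 part at E12.5 (18.1% on average), and Fgf10 fills most of each mesoderm bar.

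The counts on single exon pieces show how reads fell on these 2 pieces of Fgf8 in ectoderm, not which whole transcripts were present. Fgf8 has 17 deposited exon pieces. The extension of 33 bases had 18.4 to 22.7 counts per 100 counts of the adjoining piece of 148 bases that all forms of that exon share, and the exon of 87 bases had 10.8 to 14.9, over the 8 ectoderm libraries. Neither ratio separated the stages, since each stage overlapped another. The pieces differ in length, so these ratios are not shares of transcripts.

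The first exon of Fgf8 took 11.2 to 12.8% of the gene's exon counts in the 4 replicate 1 libraries and 5.82 to 8.80% in the 4 replicate 2 libraries, with no overlap. The replicate number also marks the RNA kit, which cannot be told apart from any other difference between replicate 1 and replicate 2 libraries. Within each replicate number, E11.5 was the highest stage.

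**Figure D4:**
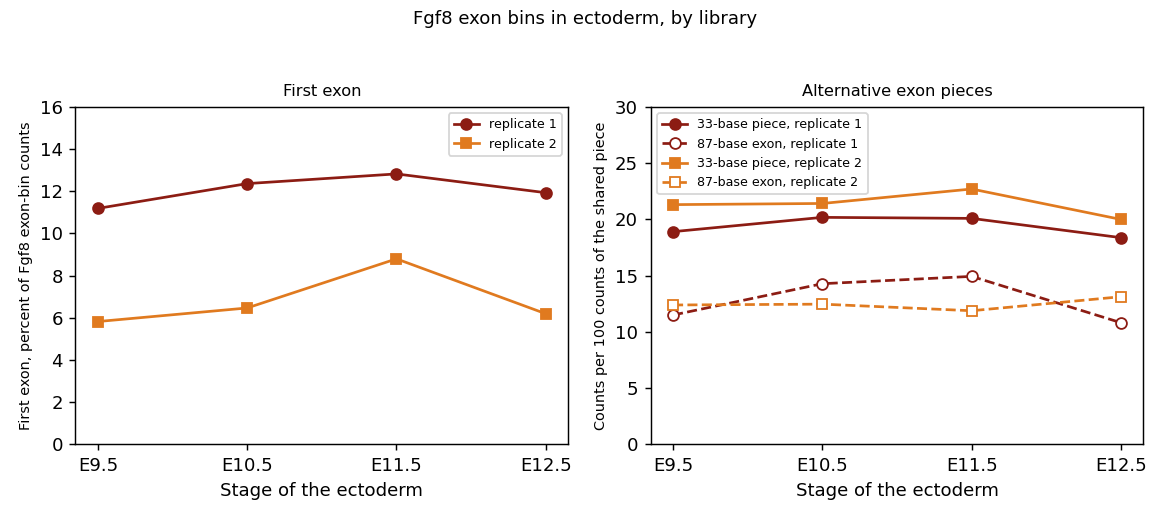
Exon pieces of Fgf8 in ectoderm by stage: the percentage of the gene's exon counts on its first exon, and the counts on the 33-base extension and the 87-base exon per 100 counts of the shared piece; symbols mark the replicate number. The first exon lies at 11.2% or more in replicate 1 and at 8.80% or less in replicate 2.

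Because the layers were separated by hand, Fgf10, Fgf2, Fgf8, Fgf9 and Fgf17 were also read in their minor layer against the markers of the major one. Fgf10 in ectoderm stood at 14.8 and 6.46% of its mesoderm level in the same embryo batch at E9.5, 7.42 and 7.25% (E10.5), 25.5 and 2.66% (E11.5) and 3.50 and 1.60% (E12.5). The median mesenchyme marker stood at 18.3 and 13.96%, 10.4 and 10.7%, 39.0 and 6.86%, and 3.46 and 4.43%. Fgf10 was thus at or below the marker median in 7 of 8 batches. Fgf2 in ectoderm stood at 10.8 and 56.6%, 11.6 and 10.8%, 37.1 and 5.25%, and 2.45 and 3.87%, above the marker median in 3 of 8 batches; the 56.6% rests on 15 ectoderm counts.

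Fgf8 in mesoderm stood at 0.0634 to 1.76% of ectoderm and was at or below the median epithelium marker in 8 of 8 batches, with both highest in E11.5 replicate 1. Fgf9 stood at 1.08 and 19.7% (E9.5), 0.707 and 1.51% (E10.5), 1.49 and 2.08% (E11.5) and 19.9 and 2.63% (E12.5). It was above the epithelium median in 6 of 8 batches. The 2 high values rest on 23 and 134 mesoderm counts, in 1 library of each stage. The processed pseudogene Gm17109 overlaps Fgf9 on the minus strand. Fgf17 in mesoderm stood at 2.05 and 0.835% of ectoderm (E10.5) and at 4.06 and 1.25% (E11.5). The median epithelium marker stood at 1.38 and 0.756% and at 2.28 and 1.19%, so Fgf17 was above it there. Those Fgf17 values rest on 19, 3, 6 and 3 mesoderm counts. At E12.5 Fgf17 was above that median in replicate 2, on 1 mesoderm count. It had no mesoderm count at E9.5 or in E12.5 replicate 1.

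**Figure D5:**
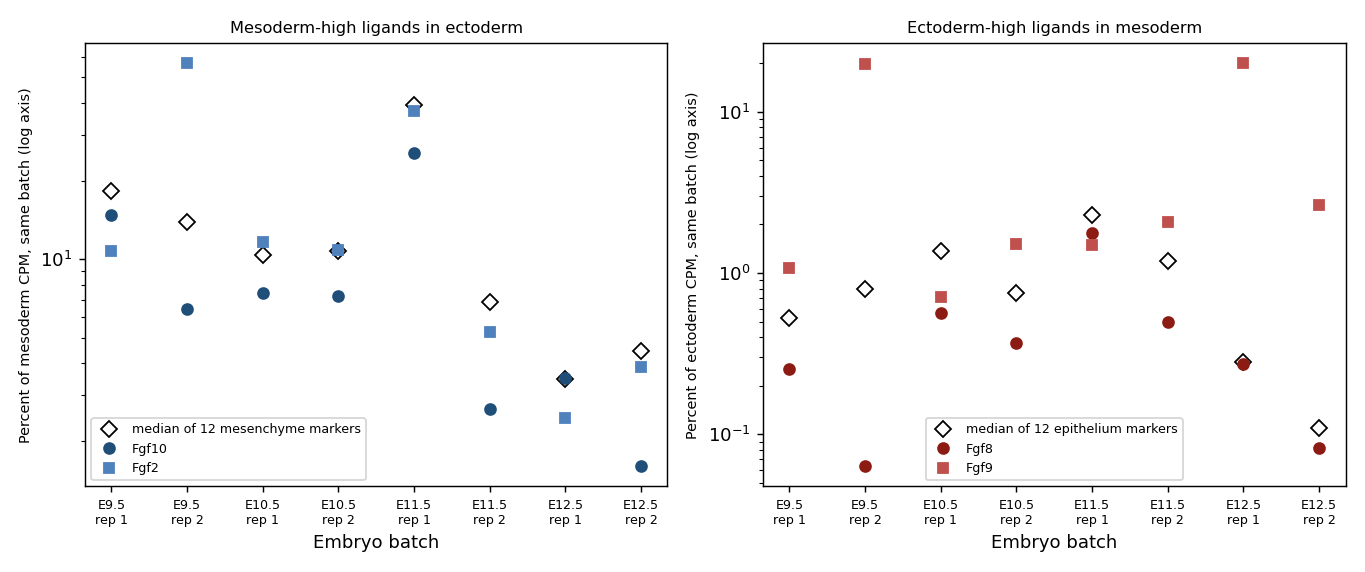
Level of Fgf10 and Fgf2 in ectoderm as a percentage of mesoderm of the same embryo batch (left) and of Fgf8 and Fgf9 in mesoderm as a percentage of ectoderm (right), by stage and replicate on log axes, beside the median of 12 markers of the major layer. Fgf10 lies at or below the markers in 7 of 8 batches, and Fgf9 above them in 6 of 8.

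Of the other 14 FGF family genes, 7 passed the count filter: Fgf1, Fgf3, Fgf5 and Fgf15, and the intracellular members Fgf11, Fgf12 and Fgf13. Between the layers, 2 were called higher in ectoderm and 0 lower at E9.5 (13.1% and 8.29% of all genes). The counts were 5 and 0 at E10.5 (16.2% and 10.2%), 4 and 1 at E11.5 (12.9% and 7.69%), and 3 and 1 at E12.5 (13.3% and 13.2%). The median log2 fold change was 4.75 at E10.5 against 0.02 for all genes. These counts and the median describe the list only. At E10.5 Fgf3, a ridge ligand, had 327 ectoderm counts and 1 mesoderm count, and Fgf5 had 61 and 2. Fgf15, an endocrine FGF of the intestine in adult mice, was called higher in ectoderm (edgeR adjusted p 0.0022), where its replicate libraries stood far apart at 59.5 and 7.94 CPM. Fgf1 was higher by 4.75 ± 0.66 (0.000268) and Fgf11, an intracellular member, by 3.64 ± 0.39 (4.15e-05). From E9.5 to E10.5 in ectoderm Fgf3 rose by 3.85 ± 0.89 (0.0343) and Fgf15 was also called higher (0.0126). The Fgf3 call is lost without any one of its 4 libraries (0.0604 to 0.285), and the Fgf15 call without either E9.5 library or E10.5 replicate 1 (0.0839 to 0.172). From E10.5 to E12.5 Fgf3 fell by 3.95 ± 0.87 (0.0256), and Fgf5 and Fgf15, with 1 and 2 counts left, were also called lower. The Fgf3 and Fgf5 calls are each lost without 1 of 3 libraries (0.148 to 0.195 and 0.0541 to 0.177), and the Fgf15 call without E12.5 replicate 1 (0.0563). Fgf13, which binds sodium channels and microtubules in neurons, was the 1 gene called lower in ectoderm, with log2 differences of −0.93 ± 0.29 at E11.5 (0.0436, a call lost in 14 of the 16 fits that leave out a library) and −2.33 ± 0.31 at E12.5 (0.00017), and it rose in mesoderm by 2.98 ± 0.31 from E9.5 to E12.5 (8.66e-05). Fgf12, of the same intracellular group, had no more than 2.65 CPM in any ectoderm library and rose in mesoderm by 5.68 ± 1.11 from E10.5 to E12.5, from 0.12 to 7.06 CPM on average (0.00971, a call lost without 1 of 3 libraries at 0.0505 to 0.0946).

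The receptors and cofactors, of which 24 of 27 listed genes were tested, gave 9 genes higher in ectoderm and 3 lower at E10.5 (16.2% and 10.2% of all genes), with a median of 0.44 against 0.02 for all genes; the counts were 6 and 5 at E9.5 (13.1% and 8.29%), 7 and 3 at E11.5 (12.9% and 7.69%), and 7 and 6 at E12.5 (13.3% and 13.2%), and they describe the list only. Fgfr2 was higher in ectoderm by 5.29 ± 0.37 at E10.5 (295 against 7.53 CPM, edgeR adjusted p 2.35e-06), and Fgfr1 was lower, at −1.64 ± 0.20 (9.39e-05). Sdc3, a heparan sulphate proteoglycan, was lower, at −2.90 ± 0.43 (0.000431), and Fgfbp1, an FGF-binding protein, was at 3.43 CPM in ectoderm with 1 count in mesoderm. In mesoderm, Fgfr2 fell by 3.29 ± 0.34 between E9.5 and E10.5 (0.000206).

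All 12 feedback and target genes of FGF signalling (Spry, Dusp, Etv and related genes) were tested. In mesoderm, between E9.5 and E10.5, 6 rose and 0 fell, when 5.3% of all genes were called higher. The median was 0.98 against 0.00 for all genes. Spry2 and Spry1, which encode feedback inhibitors, rose by 1.52 ± 0.17 and 1.4996 ± 0.29 (edgeR adjusted p 0.000277 and 0.00754). Between E10.5 and E12.5, 4 fell and 1 rose, with a median of −0.57, when 3.14% of all genes were called lower. Spry2 fell by 1.71 ± 0.17 (edgeR adjusted p 0.000441), Dusp6, an ERK phosphatase, fell by 1.71 ± 0.28 (0.00437), and Etv1 rose by 1.54 ± 0.31. The Spry1 rise is lost without mesoderm E9.5 replicate 1 (0.0764), and the Etv1 rise without replicate 1 of either stage (0.127 and 0.0898). In ectoderm, between E9.5 and E10.5, 0 of the 12 were called by edgeR or by DESeq2. An unadjusted edgeR p under 0.05 was reached by 1 of them and by 15.5% of all genes. Between layers, 4 were higher in ectoderm and 1 lower at E9.5 (13.1% and 8.29% of all genes), 1 and 3 at E10.5 (16.2% and 10.2%), 3 and 2 at E11.5 (12.9% and 7.69%), and 4 and 1 at E12.5 (13.3% and 13.2%), counts that describe the list only.

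Other genes of the ridge and of the mesenchyme that maintains it were read from lists, which were chosen with earlier results of these data known. Of 20 ridge signals and factors, 15 were higher in ectoderm and 1 lower at E9.5 (13.1% and 8.29% of all genes). The counts were 19 and 0 at E10.5 (16.2% and 10.2%), 17 and 0 at E11.5 (12.9% and 7.69%), and 13 and 3 at E12.5 (13.3% and 13.2%). The median was 5.47 at E10.5 against 0.02 for all genes. These counts and the median describe the list only. The largest E10.5 differences were those of the transcription factor genes Dlx1, at 7.22 ± 0.42, and Sp6, at 6.89 ± 0.51 (edgeR adjusted p 8.98e-07 and 3.02e-06). In ectoderm 6 rose and 1 fell from E9.5 to E10.5, when 2.95% of all genes were called higher. Sp9 rose by 4.87 ± 0.58 (edgeR adjusted p 0.00102) and Rarb fell by 3.59 ± 0.51 (0.00272). From E10.5 to E12.5, 6 fell and 1 rose, when 2.9% of all genes were called lower. Cd44 fell by 2.16 ± 0.40 (edgeR adjusted p 0.0111) and Bmp2 by 1.90 ± 0.32 (0.00719), while Sp9 rose further by 1.94 ± 0.43. Without any one of the 4 libraries the Cd44 and Sp9 calls are lost (0.0516 to 0.14 and 0.0504 to 0.2), and without E10.5 replicate 1 or E12.5 replicate 2 the Bmp2 call is lost (0.0698 and 0.057).

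Of 16 mesenchymal genes around the ridge loop, 1 was higher and 7 lower in ectoderm at E9.5 (13.1% and 8.29% of all genes). The counts were 4 and 10 at E10.5 (16.2% and 10.2%), 4 and 5 at E11.5 (12.9% and 7.69%), and 2 and 10 at E12.5 (13.3% and 13.2%). The median was −2.35 at E10.5 against 0.02 for all genes. These counts and the median describe the list only. At E10.5 Shh, the hedgehog signal, was lower in ectoderm, at −4.86 ± 0.92 (edgeR adjusted p 0.00285) as was Lhx2, at −3.67 ± 0.95 (0.0138, lost without either ectoderm library at 0.0973 and 0.0798), whereas Meis1 and Meis2, proximal limb factors, were higher by 4.65 ± 0.44 and 4.32 ± 0.21. In mesoderm, 1 gene rose and 3 fell from E9.5 to E10.5, when 5.3% of all genes were called higher. The share called lower in that step is not given. For this and the other lists, stage counts in a direction without such a share have no background here. Shh rose by 6.13 ± 0.99 (edgeR adjusted p 0.00365), in the step in which Fgf4 rose in ectoderm. A link between these rises was not tested. Meis2 fell by 5.64 ± 0.23 and Meis1 by 4.68 ± 0.44.

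The genes whose profile was most like each ligand were ranked by Pearson's r of log2 CPM over the 8 libraries of its major layer. The libraries share stages, and the values are given as a description only. Over 13087 ectoderm genes these were Sall3 (0.993), Spon1 (0.989) and Procr (0.977) for Fgf8, Arg1 (0.981), Kirrel3 (0.979) and Fgf3 (0.978) for Fgf4, Fam3a (0.990), Rab6a (0.989) and Fgf3 (0.985) for Fgf17, and Itpr3 (0.987), Sgk3 (0.987) and Gpr85 (0.984) for Fgf9. Over 12880 mesoderm genes they were Plagl1 (0.938), Ssfa2 (0.933) and Cpeb2 (0.915) for Fgf10, Pmepa1 (0.994), Ypel5 (0.992) and the macrophage marker Adgre1 (0.990) for Fgf2, and Hpdl (0.826), Adora2b (0.798) and Gabpb1 (0.789) for Fgf18. Among the members in ectoderm, Fgf4 and Fgf17 had r = 0.966, Fgf8 and Fgf4 0.921, Fgf8 and Fgf17 0.850, and Fgf8 and Fgf9 0.217 over the same 8 libraries.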

How the data were processed

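Gene counts per library for 16 libraries (2 for each of 8 groups) and FPKM were deposited by the authors, as were read counts per exon piece. Per the submitters' processing notes, cutadapt 1.16, STAR 2.6.0c, Cufflinks 2.2.1, bedtools 2.27.1 and the mm10 build were used; which tool made the gene and exon counts, and whether they used strand, are not given in the sources used here. The FPKM values were deposited ready-made and were used for levels between genes, shares of the ligand mixture and an alternative test.

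Samples were grouped by the stage and layer in their titles. R 4.3.3 with edgeR 4.0.16 and limma 3.58.1 was used. Of 28342 genes with any count, 15501 passed edgeR's filter by group; library sizes were scaled by TMM, a quasi-likelihood model with 1 mean for each group was fitted to all 16 libraries, and p-values were adjusted by Benjamini-Hochberg over all tested genes, with a threshold of 0.05 within each of 15 comparisons. The labels state no test. Values are mean ± SD over 2 libraries or estimate ± SE. Fold changes against a group without counts are bounds against 3 counts over the group, and ratios with 1 to 3 counts have exact 95% counting intervals. Alternatives were DESeq2 1.42.0, no filter, blocks for embryo batch or replicate number, limma on log2(FPKM + 1) or log2(FPKM + 0.1), and leaving out each library. Tested on simulated counts for the E9.5 layer contrast (15003 genes), the test called 59% of changes of 2 on the log2 scale, 10.4% of changes of 1 and 0.0338% of unchanged genes. The simulated counts were drawn independently for each library, without batch or kit effects and without group differences other than those changes. These rates need not hold for the real libraries.

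The labels give ectoderm and mesoderm of one stage and replicate number the same embryos. Deviations from group means of such pairs correlated at 0.546 to 0.666. Libraries of the 2 layers from other batches gave 0.432 to 0.58, a range that overlaps. With 2 libraries a group the deviations mirror each other, so the other-batch values compare libraries of the same replicate number. The replicate number also marks the RNA kit. No 2 libraries were identical. The members, gene lists and markers were chosen with earlier results of these data known. Named were all 8 members, the other FGF family genes that passed the filter, at most 2 called genes a direction from each other list, and the 3 genes with the highest r (mean of at least 1 CPM). The 2 contrasts of E12.5 with E10.5, and leaving out libraries for genes other than the members, were added after seeing the data. Promoters are from RefSeq (GRCm38.p6) and exon pieces were matched to GENCODE M21; the pieces of Fgf10, Fgf2 and Fgf7 did not match it and were not used.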

Additional observations from a re-analysis of the deposited data

How the results depend on the processing

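Of 1520 recomputed fold changes of the members, 1399 kept their direction and their side of the threshold, 67 passed only under the alternative, 40 no longer passed and 14 changed sign. The sign changes concern values that were not called. Leaving out single libraries gave ranges of −2.97 to 0.41 for Fgf18 between layers at E11.5, −0.39 to 0.20 for Fgf9 in ectoderm from E11.5 to E12.5, −0.34 to 0.45 for Fgf17 in ectoderm from E9.5 to E12.5, and −1.42 to 2.37 and −0.42 to 1.24 for Fgf9 in mesoderm from E9.5 to E10.5 and from E10.5 to E11.5. From E9.5 to E12.5 in mesoderm the ranges were −3.03 to 0.034 for Fgf8 and −0.073 to 0.56 for Fgf10. Fgf9 in mesoderm from E9.5 to E10.5 was also 0.021 with limma on log2(FPKM + 1), with or without the filter, and 0.25 on log2(FPKM + 0.1), against −0.44.

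Counts of called members changed as follows. The share of all genes called under each alternative is not given, here or in the next paragraph. These counts therefore show only how the calls depend on the setting and are not a result about the members. With no filter on low counts, ectoderm had 4, 3, 5 and 4 called members for E10.5 vs E9.5, E11.5 vs E10.5, E12.5 vs E11.5 and E12.5 vs E9.5, and mesoderm had 2, 3, 3 and 5 for E11.5 vs E10.5, E12.5 vs E11.5, E12.5 vs E9.5 and E12.5 vs E10.5, with 2 for the interaction of layer and stage. In that fit the estimated prior degrees of freedom were infinite, against 3.27 with the filter, so its p-values are much smaller. With the replicate number as a block the counts were 4, 1, 1 and 2 in ectoderm and 1, 2 and 4 for mesoderm E12.5 vs E11.5, E9.5 and E10.5, and the interaction had 1, as it did with the embryo batch as a block. DESeq2 gave 4 for ectoderm E10.5 vs E9.5, 1 for E12.5 vs E11.5, 1, 2 and 4 for the same mesoderm comparisons and 1 for the interaction. Limma on log2(FPKM + 1) gave 4, 1 and 2 for ectoderm E10.5 vs E9.5, E11.5 vs E10.5 and E12.5 vs E9.5, and without the filter 4 and 2 for the first and last of these; on log2(FPKM + 0.1) the last was 0. Mesoderm E12.5 vs E9.5 had 2 under limma with the smaller pseudocount or no filter, mesoderm E12.5 vs E10.5 had 2 and the interaction 1 under all 3.

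Under the alternatives other than leaving out a library, the layer counts were 4 to 7 (E9.5), 6 to 7 (E10.5), 5 to 6 (E11.5) and 5 to 6 (E12.5), and mesoderm E10.5 vs E9.5 had 2 to 4 against 3 as reported, with 4 from DESeq2. Without single libraries the layer counts ranged over 3 to 6, 5 to 6, 4 to 6 and 4 to 6 from E9.5 to E12.5. The ectoderm steps ranged over 0 to 3, 0 to 1 and 0 to 1, E12.5 vs E9.5 over 0 to 2 and E12.5 vs E10.5 over 0 to 3. In mesoderm they ranged over 0 to 3, 0 to 0 and 0 to 0, then 1 to 2 for E12.5 vs E9.5 and 0 to 3 for E12.5 vs E10.5, and the interaction over 0 to 1. Unless a value in the text says otherwise, the cause of these changes was not tested. With 2 libraries a group, the low counts of Fgf18, Fgf7 and the minor layer of Fgf4 and Fgf17 limit what can be detected.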
